A study of Mus musculus with 6 samples.

Results

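The vacuolar proton pump (V-ATPase) and the nutrient-sensing proteins that assemble on the lysosome were followed in mouse alveolar macrophages, the resident phagocytes of the airspaces. Members were all genes of the deposited count table whose symbol begins with Atp6v or Atp6ap, together with Lamtor1 to Lamtor5, Rraga to Rragd, Flcn, Fnip1, Fnip2, Mtor, Rptor, Rheb, Tsc1, Tsc2 and Slc38a9. The rule uses names only and found 43 of 25664 genes, 25 of the V-ATPase and 18 of nutrient sensing. Cells were sorted from lavage fluid, 50000 per sample. Vav1cre/+ Pex5fl/fl mice gave 3 libraries, called Pex5-deficient here, and Pex5fl/fl mice that lack the Cre gave the 3 control libraries. All 6 carry the floxed Pex5 alleles, and values are listed in the order of replicates 1, 2 and 3. Vav1-Cre acts throughout the blood-forming lineage from its stem cells on, so the deletion is aimed at all blood cells, not at macrophages alone. How complete it was in these macrophages cannot be read from the values used here. Effects of Cre and of the deletion cannot be told apart. Pex5 encodes the receptor that imports most enzymes of the peroxisome matrix. Age, sex and the number of mice are not given in the labels used here, so p-values measure the spread between these samples, which may be technical.

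The V-ATPase is a rotary pump. Its cytosolic V1 sector hydrolyses ATP, and its V0 sector carries protons into the lumen of the lysosome, where the acid activates hydrolases that in alveolar macrophages break down surfactant and engulfed cells. The same membrane senses nutrients: the pump and the arginine-sensing transporter SLC38A9 contact the Ragulator complex (Lamtor1 to Lamtor5), which anchors the Rag GTPases, and these recruit the kinase complex mTORC1 to its activator Rheb. The TSC complex switches Rheb off, and folliculin (Flcn) with its partners Fnip1 and Fnip2 acts on RagC and RagD and so on the phosphorylation of the transcription factors TFEB and TFE3. These MiT/TFE factors bind E-box letters with the core CACGTG near many V-ATPase and lysosomal genes.

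Total counts ranged from 13325609 to 19413838 per library, and members took 0.704% to 0.771% of the counts in control and 0.835% to 0.865% in Pex5-deficient libraries. Pex5-deficient replicate 2 stood apart from the rest: its scaling factor by trimmed mean of M values (TMM) was 1.34, against 0.899 to 1.03 in the others, and the 50 most abundant genes took 30.4% of its counts, against 38.3% to 42.1%. Counts of members and several single values are given with and without it. Transcript of Pex5 itself, counted over the whole gene, was at 31.6 ± 1.71 CPM (reads relative to library size) in control and 32.4 ± 3.45 CPM in Pex5-deficient libraries (SD, n = 3 each). This value does not check the labels, since it covers the whole gene and no source used here gives the floxed exons. All 12 alveolar macrophage markers were detected, with a summed level of 56938 to 74387 CPM in control against 50537 to 77352 CPM in Pex5-deficient libraries. Of them 3, Siglecf, Ear1 and Krt79, were called lower, against 1.51% of all genes. Itgax (log2 fold change -0.43) and Mrc1 (-0.48) were below 0 without a call, while Chil3 (0.16) and Pparg (0.07) were above 0. Of 10 neutrophil markers, S100a9, Retnlg, Ngp, Camp and Ly6g were at 0 in every library, but the summed level of the list was 77.7 to 102 CPM in control against 133 to 180.4 CPM in Pex5-deficient libraries. Of the 4 tested, 2 were called higher, against 1.74% of all genes: S100a8 and Cxcr2, with log2 fold changes of 2.07 and 2.17. Mmp8 was at 0.90 and was not called, and Csf3r went the other way, at -0.52 (adjusted p = 0.279). The summed level of 6 epithelial markers was 40.5 to 54.4 CPM in control against 66.8 to 73.5 CPM in Pex5-deficient libraries. Most of it was Cdh1, at 38.5 to 52.8 CPM in control against 66.2 to 72.0 CPM in Pex5-deficient libraries (log2 fold change 0.51). The other tested epithelial markers went the other way, Sftpc at -1.15 and Scgb1a1 at -0.82, and 0 of 3 tested were called. The part of these 2 lists in the values below was not tested. The 4 eosinophil markers were at 0 in every library, and 4 erythroid markers were at 0 in control and summed to 0.0750 to 6.17 CPM in Pex5-deficient libraries, the highest in replicate 2. In bulk RNA, fewer cells that express a gene and less transcript per cell cannot be told apart.

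The promoters of several members carry the E-box letters, and 5 are printed: the 3 that hold the longer letters, Atp6v0b, which holds the core at 2 places as Lamtor4 also does, and Rragc for the largest log2 fold change among tested members with the core. RefSeq promoter windows (GRCm38.p6, 250 bases before to 50 after the start) matched 35 of the 43 members. The letters CACGTG, which read the same on both strands, occurred in a window of 10 of these 35 members (28.6%), against 8.09% of the 27025 genes with windows. The longer letters TCACGTGA, which contain the core, occurred in 3 of 35 (8.57%), against 1.12% of all genes: Atp6v1a, Atp6v0d1 and Atp6v0e. The other 7 with the core were Atp6v0b, Lamtor1, Lamtor4, Rragb, Rragc, Fnip1 and Rheb. The shares of all genes cover every gene with a window, expressed in these cells or not. They are not matched to the members for expression or base composition, and the difference was not tested. The stretches run 5′ to 3′ on the gene's strand from 150 bases before to 20 after the start, with the searched letters in capitals: Atp6v1a at chr16:44139240-44139409 (minus strand), Atp6v0d1 at chr8:105566045-105566214 (minus), Atp6v0e at chr17:26676246-26676415 (plus), Atp6v0b at chr4:117887310-117887479 (minus) and Rragc at chr4:123917283-123917452 (plus).
Atp6v1a: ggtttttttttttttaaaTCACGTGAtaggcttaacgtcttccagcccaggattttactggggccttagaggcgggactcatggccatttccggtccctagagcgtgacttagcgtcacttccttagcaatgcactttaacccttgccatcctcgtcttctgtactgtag
Atp6v0d1: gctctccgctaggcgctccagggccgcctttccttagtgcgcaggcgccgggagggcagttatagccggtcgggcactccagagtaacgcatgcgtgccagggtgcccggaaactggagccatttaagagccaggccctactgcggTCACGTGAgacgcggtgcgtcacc
Atp6v0e: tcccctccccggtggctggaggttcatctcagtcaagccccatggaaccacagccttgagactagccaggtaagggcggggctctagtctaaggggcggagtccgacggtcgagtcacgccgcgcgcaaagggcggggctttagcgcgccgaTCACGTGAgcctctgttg
Atp6v0b: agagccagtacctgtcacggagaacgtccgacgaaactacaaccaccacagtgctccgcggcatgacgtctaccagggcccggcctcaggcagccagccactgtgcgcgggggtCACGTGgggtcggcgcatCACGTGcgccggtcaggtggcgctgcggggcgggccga
Rragc: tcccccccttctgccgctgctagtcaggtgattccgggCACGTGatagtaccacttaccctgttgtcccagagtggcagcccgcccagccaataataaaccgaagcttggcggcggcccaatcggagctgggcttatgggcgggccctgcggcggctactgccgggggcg
In Atp6v0b the core stood at 2 places, with its first base 36 and 18 bases before the start. In Atp6v0d1 its first base lay 3 bases before the start, so the core spans the start. In Atp6v0e the core began at base 4 from the start and lies wholly after it. Rragb, at 13 reads in all, held it at 3 places. A match of letters describes the window and is not a site of binding.

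Of the 43 members, 35 had enough reads to be tested. Atp6v1b1, Atp6v1e2, Atp6v1g3, Atp6v0a4 and Atp6ap1l had 0 counts in all 6 libraries, where 3 counts would be 0.155 to 0.225 CPM. These include the B1 and a4 subunits, known from acid-secreting cells of kidney and epididymis, and the testis form of the E subunit. Atp6v1c2 had 34 reads in all and Rragb, the close relative of Rraga known mainly from brain, had 13. Rragd, a RagC relative and a known target of the MiT/TFE factors, had 2, 4 and 7 reads in the 3 controls and 16, 16 and 8 in the 3 Pex5-deficient libraries. On unscaled totals that was 0.141, 0.211 and 0.488 CPM against 1.2, 0.898 and 0.412 CPM, so 2 Pex5-deficient libraries were above every control and the groups overlapped through Pex5-deficient replicate 3. A detection filter kept these 8 genes out of the test. Without the filter, Rragd had a log2 fold change of 1.39 ± 0.63 (unadjusted p = 0.0438, adjusted p = 0.311 in edgeR), Rragb -1.41 ± 1.09 (adjusted p = 0.595) and Atp6v1c2 -0.30 ± 0.68 (adjusted p = 0.866). Rragd also passed the filter when Pex5-deficient replicate 3 or any 1 control was left out, at 1.13 to 1.93, and was not called.

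Pex5-deficient and control macrophages did not differ in any tested member past the threshold. In the quasi-likelihood test of edgeR, adjusted over all 11011 genes by the Benjamini-Hochberg method, 0 of 35 members were called at 0.05, whereas 3.25% of all genes were (1.74% higher, 1.51% lower). The unadjusted p was under 0.05 for 7 members (20%), 6 higher and 1 lower, and for 18.9% of all genes. The groups did not overlap for 7 members (20%), against 26.1% of all genes: 6 on the higher side, against 13%, and 1 on the lower side, against 13.1%. The share at an unadjusted p under 0.05 lies near its background, and the share without overlap lies below its own. The lowest adjusted p was 0.0862, for Atp6v1c1, and the log2 fold changes ran from -0.39 to 0.69. 24 of 35 members had a log2 fold change above 0 (68.6%), against 49.9% of all genes, and the median was 0.15 against -0.00077 for all genes.

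**Figure D1:**
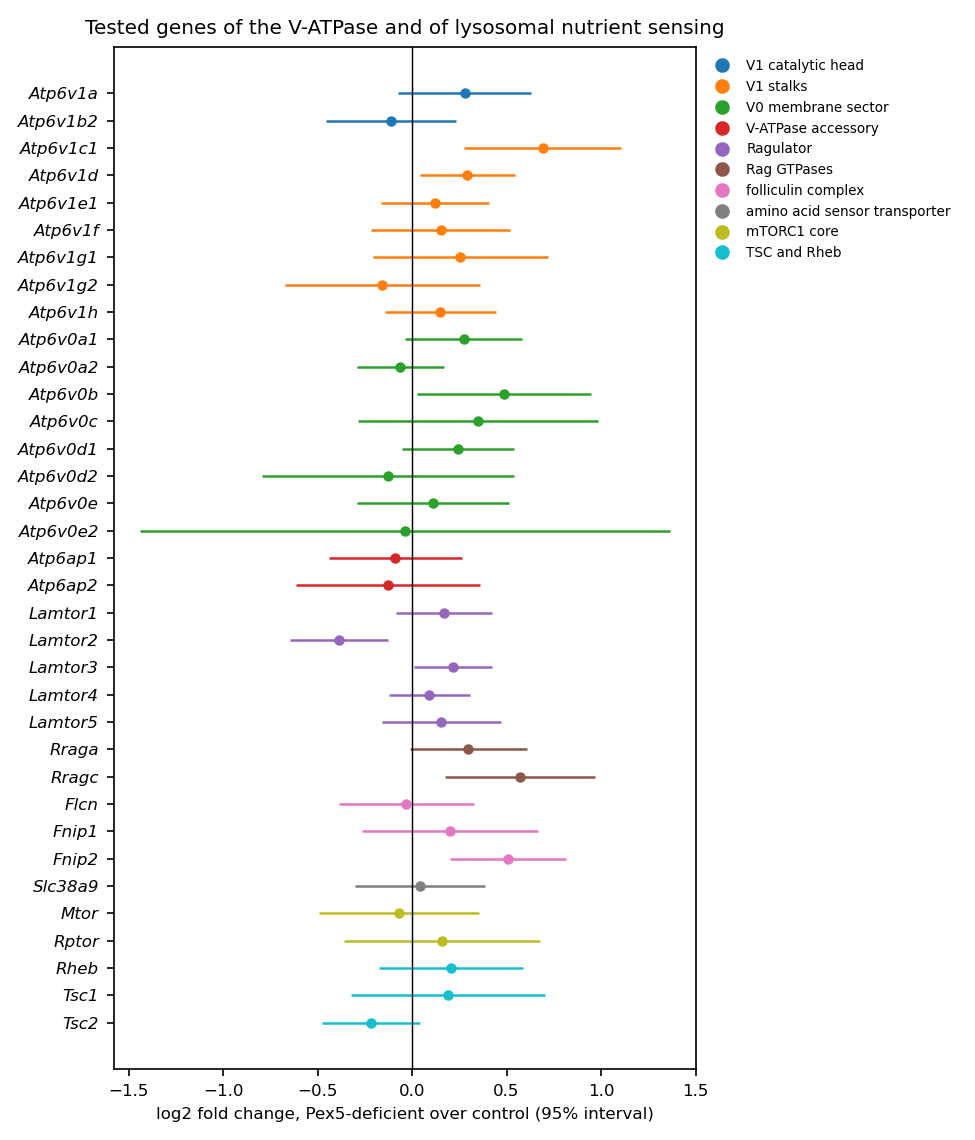
Log2 fold change of the 35 tested members, Pex5-deficient over control, with 95% intervals from edgeR (n = 3 libraries per group), coloured by role. The intervals of Atp6v1c1, Atp6v1d, Atp6v0b, Lamtor2, Lamtor3, Rragc and Fnip2 do not reach 0, but none of the 35 passed the adjusted threshold, and the widest belongs to Atp6v0e2, a gene below 1.2 CPM in every library.

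The V1 head, where ATP is hydrolysed, is built of A and B subunits. The B subunit came from Atp6v1b2 alone, the most abundant of the V1 genes per kilobase after Atp6v1f, since Atp6v1b1 was at 0. Atp6v1b2 was at 771, 784 and 764 CPM in the 3 controls and at 769, 623 and 756 CPM in the 3 Pex5-deficient libraries. The groups overlapped, replicate 2 of the Pex5-deficient libraries being the lowest (log2 fold change -0.11 ± 0.15, SE, adjusted p = 0.746). Atp6v1a, the catalytic A subunit, was at 279, 268 and 241 CPM in control, and at 336, 256 and 363 CPM in the 3 Pex5-deficient libraries. Here 2 of the 3 Pex5-deficient libraries were above every control and the third was among them (0.28 ± 0.15, adjusted p = 0.371). Without that library, Pex5-deficient replicate 2, the value was 0.43 (adjusted p = 0.0648).

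The stalks of V1 hold the head still and pass on its rotation. Atp6v1c1, the C subunit by which V1 docks on V0 and detaches from it, was the member with the largest difference. The gene lies at chr15:38661933-38692446 (GRCm38, plus strand). It was at 176, 223 and 167 CPM in control, and at 361, 237 and 318 CPM in the 3 Pex5-deficient libraries. All 3 Pex5-deficient libraries were above all 3 controls, by a narrow margin for Pex5-deficient replicate 2, and the means were 189 ± 30.0 and 305 ± 62.8 CPM (SD, n = 3 each). The log2 fold change was 0.69 ± 0.18 (95% interval 0.28 to 1.11, 1.62-fold), with an adjusted p of 0.0862. Without Pex5-deficient replicate 2 it passed, at 0.86 ± 0.15 (adjusted p = 0.0240), and with the other replicates left out in turn it did not. Atp6v1d, a subunit of the rotating shaft, was likewise apart, at 87.2, 82.4 and 75.1 CPM in control against 106, 89.8 and 104 CPM in the 3 Pex5-deficient libraries (0.29 ± 0.11, adjusted p = 0.200).

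Atp6v1f, which sits with the D subunit in the shaft, was the most abundant V1 member per kilobase. It was at 264, 305 and 260.3 CPM in control, and at 319.7, 245 and 357 CPM in the 3 Pex5-deficient libraries, with overlap (0.15 ± 0.16, adjusted p = 0.662). Of the 7 tested stalk genes, 6 had a log2 fold change above 0. The exception was Atp6v1g2, a G subunit known from neurons, at 2.35 to 3.51 CPM over the 6 libraries. Its relative Atp6v1g1 made up 98.7% to 99.4% of G transcript per kilobase. Atp6v1e1 and Atp6v1h, subunits of the peripheral stalks, had 0.12 ± 0.12 and 0.15 ± 0.13. For Atp6v1g1 (0.25 ± 0.20) and Atp6v1f, 7.34% and 4.10% of the transcript's 100-base words also occur in another gene, so a small part of their reads could be split.

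V0 spans the membrane and holds the ring of c subunits that moves the protons. Its most abundant member per read and per kilobase in control was Atp6v0d2, the form of the d subunit of osteoclasts and some macrophages. Atp6v0d2 was at 2104, 2060 and 1434 CPM in control, and at 1876, 1068 and 2188 CPM in the 3 Pex5-deficient libraries. Both groups spread widely and overlapped, with the lowest and the highest library both Pex5-deficient (-0.13 ± 0.29, adjusted p = 0.864). The log2 fold change turned to 0.14 ± 0.18 without Pex5-deficient replicate 2. Per kilobase of transcript, Atp6v0d2 made up 75.9% to 85.2% of d transcript in control and 69.8% to 81.8% in Pex5-deficient libraries, the rest being Atp6v0d1, the widespread form. Atp6v0d1 was at 234, 273 and 292 CPM in control, and at 334, 296 and 313 CPM in the 3 Pex5-deficient libraries, without overlap (0.24 ± 0.13, adjusted p = 0.357).

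Atp6v0b encodes the c″ subunit of the proton-carrying ring and holds the pair of E-box cores printed above. Its level was 431, 551 and 471 CPM in control against 821, 502 and 711 CPM in the 3 Pex5-deficient libraries. Replicates 1 and 3 of the Pex5-deficient libraries were above all controls and replicate 2 was among them (0.49 ± 0.20, 95% interval 0.02 to 0.95, adjusted p = 0.244). Without Pex5-deficient replicate 2 the value was 0.67 ± 0.14 and passed (adjusted p = 0.0422). About 11.8% of the exon bases of Atp6v0b overlap a gene on the opposite strand, whose reads cannot be told apart, as no source used here gives the strand setting of the counting. Atp6v0c, the c subunit itself, had the same order of libraries within each group, at 289.6, 468 and 341 CPM in control against 599, 288 and 511 CPM in the 3 Pex5-deficient libraries (0.35 ± 0.28, adjusted p = 0.548). Its value is uncertain, because 24.5% of its words occur in other genes, the closest being the pseudogene Atp6v0c-ps2. Atp6v0e had 0.11 ± 0.18, and Atp6v0e2 was at 0.156 to 1.09 CPM.

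The a subunit sets where in the cell a pump resides. Its a3 form, known from lysosomes of osteoclasts and macrophages, is encoded by Tcirg1, a V-ATPase gene whose symbol the rule does not match. Tcirg1 was at 169, 223 and 178 CPM in control, and at 305, 258 and 263 CPM in the 3 Pex5-deficient libraries. All Pex5-deficient libraries were above all controls (0.54 ± 0.14, 1.45-fold), but the adjusted p was 0.0885. Atp6v0a1 was at 83.0, 82.0 and 102 CPM against 124, 95.6 and 103 CPM (0.27 ± 0.14, adjusted p = 0.322), with overlap. Atp6v0a2, known from the Golgi and endosomes and overlapped on 9.86% of its exon bases by a gene on the other strand, was at 35.1, 40.5 and 38.1 CPM against 38.9, 36.1 and 34.2 CPM (-0.06 ± 0.10, adjusted p = 0.796; 0.11 ± 0.24 with library size as the only scaling).

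The mix of a forms can be read within each library and so without any scaling. Per kilobase of longest coding transcript, Tcirg1 made up 67.0%, 72.3% and 64.2% of the transcript of the 3 expressed a forms in the 3 controls and 72.4%, 73.5% and 73.0% in the 3 Pex5-deficient libraries. Atp6v0a2 made up 7.94%, 7.49% and 7.85% in control and 5.25%, 5.85% and 5.40% in Pex5-deficient libraries. The groups did not overlap for either share, although for Tcirg1 control replicate 2 lay within 0.2 percentage points of the nearest Pex5-deficient library. The 3 shares are parts of 1 whole, so a higher share of Tcirg1 lowers the others, and these are not separate observations. The level of Atp6v0a2 itself overlapped between the groups (log2 fold change -0.06 ± 0.10). Atp6v0a1 took 20.2% to 27.9% in control and 20.7% to 22.4% in Pex5-deficient libraries, with overlap. The shares depend on the lengths used: with the union of all exons, Atp6v0a2 was at 9.36% ± 0.303 in control and 6.65% ± 0.372 in Pex5-deficient libraries, again without overlap. They were not tested.

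**Figure D2:**
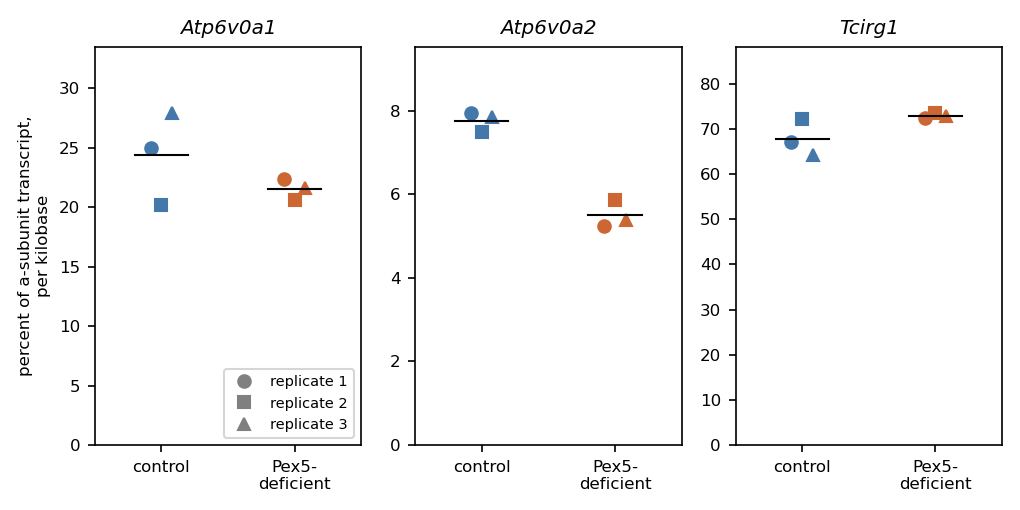
Share of each expressed a-subunit gene in the transcript of all 3, per kilobase, in percent, for each library (markers give the replicate, lines the means, and each panel has its own axis from 0). Atp6v0a2 was at 7.49% to 7.94% in control and 5.25% to 5.85% in Pex5-deficient libraries, while Atp6v0a1 overlapped between the groups.

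Both accessory proteins, which help assemble the pump, were abundant, and neither passed the test. Atp6ap1, known also as Ac45, was at 604, 632 and 630.3 CPM in control against 637, 487 and 632 CPM in the 3 Pex5-deficient libraries (-0.09 ± 0.15, adjusted p = 0.808). Atp6ap2, the prorenin receptor, was at 505, 491 and 345 CPM against 409, 313 and 506 CPM (-0.13 ± 0.21, adjusted p = 0.800). In both genes Pex5-deficient replicate 2 was the lowest of the 6 libraries.

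**Figure D3:**
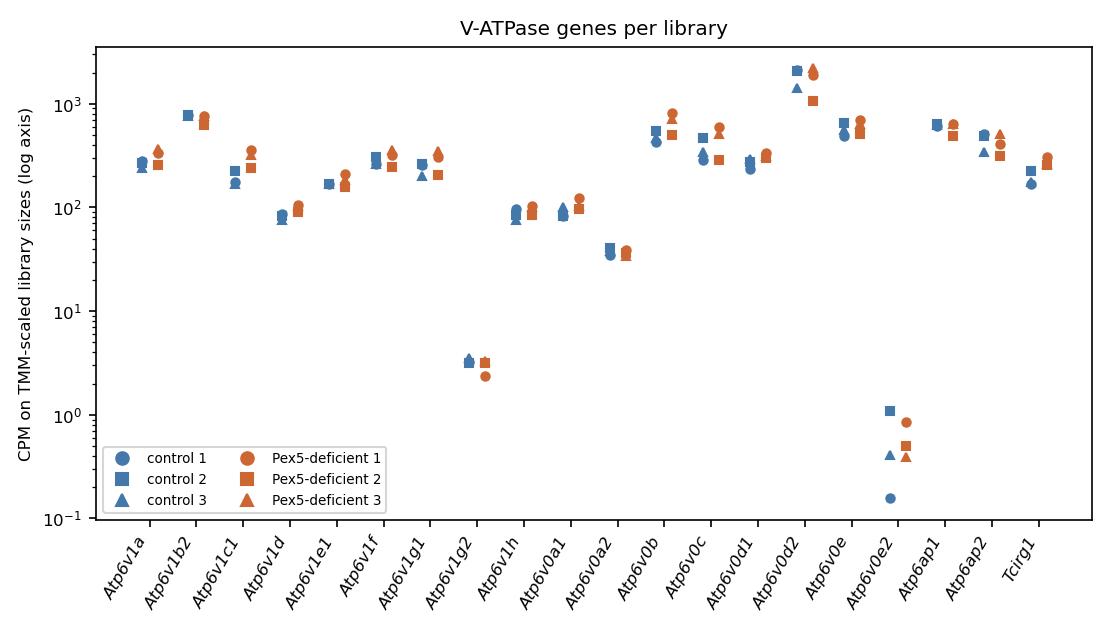
CPM of the 19 tested V-ATPase members and Tcirg1 in each library, on TMM-scaled library sizes and a log axis (blue for control, orange for Pex5-deficient, markers give the replicate). Squares in orange, Pex5-deficient replicate 2, are the lowest Pex5-deficient library for most subunit genes, and genes should be compared between groups, not with each other, since CPM is not per length.

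The count of called members was 0 to 3 across the 14 settings run. DESeq2 called 2 higher (Atp6v1c1 and Fnip2) and 1 lower (Lamtor2), against 6.86% of all genes, and library size as the only scaling called 2 higher (Atp6v1c1 and Atp6v0b), against 3.82%. Under that scaling all genes had a median of 0.17 (log2), and the calls over all genes went to 289 higher and 132 lower, from 192 and 166. In the other settings with all libraries 0 members were called: with upper-quartile factors (3.47% of all genes), no filter (3.19%), a mean of at least 5 CPM (2.8%), limma-voom (2.94%) and a replicate block (0.754%). It was 0 also without Pex5-deficient replicate 1 (1.04%) or 3 (1.97%) and without control replicate 1 (0.675%), 2 (1.63%) or 3 (1.21%).

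How the pump genes summed depended on the scaling of 1 library. On TMM-scaled library sizes the 17 tested subunit genes summed to 5769, 6312 and 5197 CPM in control against 6997, 4699 and 7033 CPM in the 3 Pex5-deficient libraries. Pex5-deficient replicate 2 was thus below every control, and the other 2 were above every control. Without Atp6v0d2, the most abundant of them, the sums were 3665, 4251 and 3763 CPM in control against 5122, 3632 and 4844 CPM in the 3 Pex5-deficient libraries. Replicate 2 then lay only just below the lowest control. On unscaled library totals, with all 22 subunit genes, the sums were 5185, 5805 and 5365 CPM in control against 6714, 6278 and 6410 CPM in the 3 Pex5-deficient libraries, without overlap. In Pex5-deficient replicate 2 the level on TMM-scaled sizes was the lowest of its group for 14 of the 17 subunit genes (82.4%), for 4 of the 16 tested nutrient-sensing members (25%) and for 35.2% of all genes. No p is given for these sums.

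**Figure D4:**
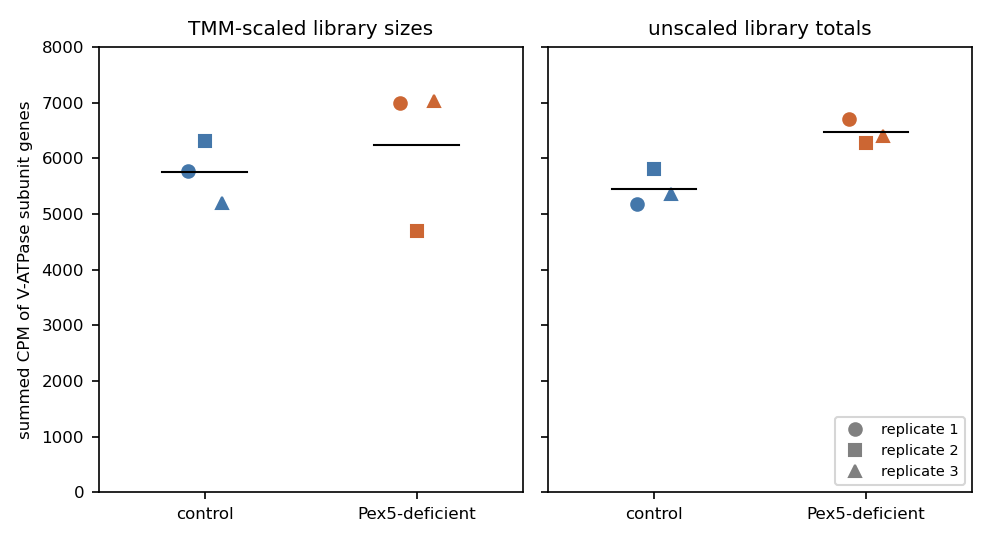
Summed CPM of V-ATPase subunit genes in each library, on TMM-scaled library sizes (left, 17 tested genes) and on unscaled totals (right, 22 genes), with group means as lines. Pex5-deficient replicate 2 moves from below the controls (4699) to above them (6278) between the panels.

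Without Pex5-deficient replicate 2, 2 of 35 members were called, Atp6v1c1 and Atp6v0b, both higher, against 4.75% of all genes. The unadjusted p was under 0.05 for 15 members (42.9%), 14 higher and 1 lower, against 21.6% of all genes. The groups did not overlap for 18 members on the higher side, against 20.3% of all genes, and for 1, Lamtor2, on the lower side, against 19.8%. On unscaled CPM with all libraries, 13 members were apart on the higher side, against 14.3% of all genes, and 1 on the lower side, against 2.99%. Both counts of members without overlap were added after the values of Pex5-deficient replicate 2 had been seen, and no test of the members as a group was made. The shares of all genes given here are not matched to the members for abundance. In Pex5-deficient replicate 2 the 50 most abundant genes took 30.4% of counts, against 38.3% to 42.1% in the other libraries.

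Ragulator, the scaffold that ties the Rag GTPases to the lysosome, had 5 tested members, of which 4 had a log2 fold change above 0 and Lamtor2 one below. Lamtor2, also known as p14 and lying at chr3:88549819-88553074 (GRCm38, minus strand), was at 196, 193 and 178 CPM in control, and at 144, 132 and 158 CPM in the 3 Pex5-deficient libraries. All Pex5-deficient libraries were below all controls (189 ± 9.79 against 144 ± 13 CPM, SD, n = 3 each). The log2 fold change was -0.39 ± 0.11 (95% interval -0.64 to -0.13, adjusted p = 0.110), and it was below 0 in each of the 14 settings run. Lamtor3, its partner in 1 of the scaffold's dimers and also known as MP1, was at 77.5, 81.4 and 76.8 CPM against 91.9, 93.3 and 89.1 CPM, apart on the higher side (0.22 ± 0.09, adjusted p = 0.241). The transcripts of these paired subunits were thus apart in opposite directions, though neither passed over all genes. Of all genes, 13% were apart on the higher side and 13.1% on the lower side, so such a pattern is common in these data. With library size as the only scaling, Lamtor2 was at -0.23 (adjusted p = 0.673) and Lamtor3 at 0.39 (adjusted p = 0.440). For Lamtor3, 11.4% of words occur elsewhere, mostly in the predicted gene Gm5900.

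Lamtor1, the lipid-anchored subunit that wraps the others, was the most abundant by reads after Lamtor2 in control and first in Pex5-deficient libraries. It was at 188, 183 and 184 CPM in control, and at 222, 187 and 214 CPM in the 3 Pex5-deficient libraries (0.17 ± 0.11, adjusted p = 0.461), and 18.7% of its exon bases overlap Lrrc51 on the other strand. Lamtor4 (0.09 ± 0.09) and Lamtor5 (0.15 ± 0.14) form another dimer and overlapped between the groups.

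The Rag GTPases act as pairs of RagA or RagB with RagC or RagD. In these cells the pair was made of Rraga and Rragc transcript, with Rragc at 98.0% to 99.6% of the RagC and RagD transcript per kilobase. Rragc lies at chr4:123917446-123936997 (GRCm38, plus strand), and 7.90% of its exon bases overlap a gene on the other strand. It was at 20.7, 24.6 and 23.7 CPM in control, and at 30.9, 43.8 and 27.7 CPM in the 3 Pex5-deficient libraries. All Pex5-deficient libraries were above all controls, and replicate 2, low for the pump genes, was the highest here (0.57 ± 0.17, 1.49-fold, adjusted p = 0.122). Without it the difference was 0.36 ± 0.13 (adjusted p = 0.158). Rraga was at 23.7, 18.3 and 18.6 CPM against 27.0, 24.9 and 22.6 CPM, with overlap (0.30 ± 0.14, adjusted p = 0.282).

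Folliculin and its partners form the complex that makes RagC and RagD hydrolyse GTP. Flcn was at 76.3, 86.6 and 74.6 CPM in control, and at 59.0, 87.2 and 86.0 CPM in the 3 Pex5-deficient libraries (-0.03 ± 0.16, adjusted p = 0.943). Fnip2, a partner at chr3:79455974-79567796 (GRCm38, minus strand), was at 12.6, 14.0 and 12.3 CPM against 18.8, 20.3 and 16.1 CPM. All Pex5-deficient libraries were above all controls (13 ± 0.897 against 18.4 ± 2.12 CPM), with a log2 fold change of 0.51 ± 0.13 (95% interval 0.20 to 0.81) and an adjusted p of 0.0889. Fnip1, the other partner, was at 22.1, 17.8 and 13.2 CPM against 17.9, 18.2 and 24.8 CPM, with overlap (0.20 ± 0.20, adjusted p = 0.643). Per kilobase, Fnip2 took 32.9% to 44.4% of the transcript of both in control and 35.8% to 48.8% in Pex5-deficient libraries, so their mix overlapped.

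Among the sensor, the kinase complex and its switch 0 members passed the test. Slc38a9 was at 18.3, 14.0 and 14.0 CPM in control against 16.7, 16.8 and 14.1 CPM in the 3 Pex5-deficient libraries (0.04 ± 0.15, 95% interval -0.30 to 0.39, adjusted p = 0.910). Mtor, the kinase, was at 10.7, 12.4 and 13.1 CPM against 8.92, 14.0 and 11.4 CPM (-0.07 ± 0.19, interval -0.49 to 0.35, adjusted p = 0.880). Rptor, which binds its substrates, was at 9, 8.53 and 10.5 CPM against 8.76, 14.1 and 8.20 CPM, with Pex5-deficient replicate 2 the highest of the 6 (0.16 ± 0.23, adjusted p = 0.762). For Slc38a9 and Mtor the intervals still allow a log2 change of 0.35 or more upwards.

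Rheb, the small GTPase that activates mTORC1, was at 95.4, 79.4 and 71.7 CPM in control, and at 112, 74.5 and 98.4 CPM in the 3 Pex5-deficient libraries (0.21 ± 0.17, adjusted p = 0.555). Tsc2, the subunit that switches Rheb off, was at 43.5, 51.6 and 56.1 CPM against 41.8, 45.1 and 43.0 CPM (-0.22 ± 0.11, adjusted p = 0.338), with overlap through control replicate 1. About 7.20% of the exon bases of Tsc2 overlap Pkd1 on the other strand. Tsc1, its scaffold partner, was at 3.71 to 5.84 CPM in control against 4.92 to 6.13 CPM in Pex5-deficient libraries (0.19 ± 0.23).

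**Figure D5:**
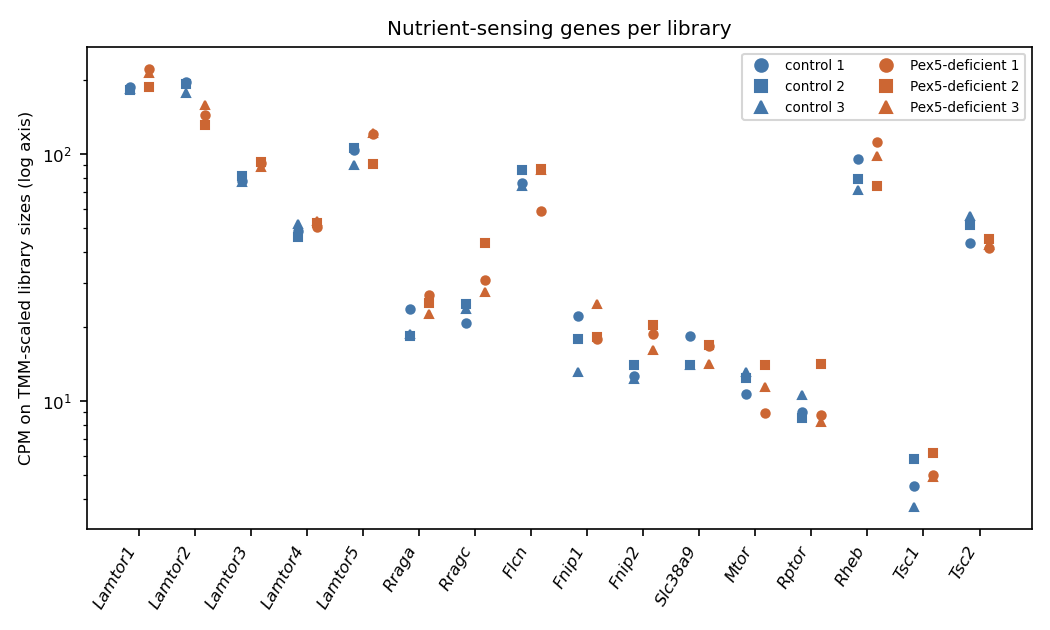
CPM of the 16 tested nutrient-sensing members in each library, on TMM-scaled library sizes and a log axis (blue for control, orange for Pex5-deficient, markers give the replicate). Lamtor2 is lower and Lamtor3, Rragc and Fnip2 are higher in all 3 Pex5-deficient libraries than in any control, and the other genes overlap.

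Members with the E-box core and members without it were set side by side as a description. Of the 9 tested members with the core in a promoter window, 9 had a log2 fold change above 0, from 0.09 to 0.57 with a median of 0.21, and 0 were called. Among these 9, the 95% intervals of Atp6v0b and Rragc alone do not reach 0. Of all genes 49.9% were above 0, a share over genes with and without the core, since genes with it were not counted apart. Of the 19 tested members whose windows lack these letters, 11 were above 0 and 8 below, with a median of 0.12, and 0 were called. The other 7 tested members, Atp6v1b2, Atp6v1c1, Atp6v1g1, Atp6v1h, Atp6v0a2, Atp6v0d2 and Lamtor3, had no window and are in neither group. The absence of the letters says only that they are not in that window. The transcripts of the factors known to bind such letters, Tfeb, Tfe3, Mitf and Tfec, had log2 fold changes from -0.10 to 0.11, and 0 of 4 were called.

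Around the members, 10 lists of related genes held 96 tested genes, of which 2 rose and 0 fell, against 1.74% and 1.51% of all genes, and both were lysosomal ion channels. The lists were not tested as sets. Mcoln2, a cation channel of endosomes and lysosomes at chr3:146149833-146195513 (GRCm38, plus strand), was at 4.15, 3.26 and 4.39 CPM in control, and at 9.93, 9.87 and 11.5 CPM in the 3 Pex5-deficient libraries. Every Pex5-deficient library was above every control, with no library standing out (1.41 ± 0.19, 2.66-fold, adjusted p = 0.00865), and the call held in all 14 settings run, with adjusted p from 4.75e-08 to 0.0446. Tpcn2, a channel of the lysosomal membrane, rose from 10.9 ± 1.04 to 17.3 ± 1.33 CPM (0.66 ± 0.13, adjusted p = 0.0368). Its call was lost without any 1 of the libraries, with adjusted p from 0.0524 to 0.140, while the log2 fold change was 0.59 to 0.72.

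In the other lists the counts were 0. The GATOR and KICSTOR complexes, which relay amino acid supply to the Rag GTPases, had 11 tested genes with log2 fold changes from -0.32 to 0.24. The cytosolic amino acid sensors had 6, the amino acid transporters 12, the other mTORC1 and mTORC2 subunits 8, the AMPK subunits 6 and the genes of mTORC1 output 11 tested, and none was called. Among 17 tested targets of the MiT/TFE factors 0 were called, with a median of 0.04 and a range from -0.64 to 1.32. The assembly factors and regulators of the V-ATPase, Tcirg1 among them, had 12 tested genes, of which 4 were above 0, with a median of -0.023.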

How the data were processed

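Per the labels' protocols, total RNA of 50000 sorted cells per sample went into a stranded SMART-Seq library, read as single ends of 100 bases. The gene counts were deposited by the authors as 1 table of raw whole numbers. Tools and builds are named per the submitters' processing notes, without roles: featureCounts, STAR, DESeq2 1.40.1 and R 4.3.2, with the builds mm10 and GRCm38.p5. No source used here gives the annotation or the strand setting.

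Libraries were grouped by genotype. Genes were filtered with filterByExpr (minimum count 10, minimum total 15; 11011 of 25664 kept), scaled with TMM factors and compared by edgeR's quasi-likelihood F test (edgeR 4.0.16 in R 4.3.3). The Benjamini-Hochberg adjustment covers the whole table of tested genes, and the threshold was 0.05. Every p comes from this fit unless another is named. CPM are on TMM-scaled library sizes unless called unscaled, and marker sums are unscaled. Standard errors and 95% intervals come from the F statistics. Levels per kilobase use the longest coding transcript of GENCODE M21 (GRCm38), from which 100-base words and overlaps were also counted. The steps were tested on simulated data.

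The members, their roles and the lists were chosen with earlier results of these data known. Named in full were the most abundant member and the one with the smallest p in each role, Tcirg1 and called genes of the lists. Other members, Atp6v1d, Atp6v0a1, Atp6v0a2, Atp6v0c, Atp6v0d1, Lamtor3, Rraga, Rragd and Fnip1, were given in full after their values were seen. Alternatives were DESeq2 1.42.0, limma-voom (limma 3.58.1), other scaling and filters, a replicate block and leaving out each library.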

Additional observations from a re-analysis of the deposited data

How the results depend on the processing

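The count of all genes called was 358, against 755 with DESeq2 and 83 with the replicate block, and 76 to 523 with 1 library left out. The count of members called higher was 0, but 2 with DESeq2 (Atp6v1c1, Fnip2), 2 with library size only (Atp6v1c1, Atp6v0b) and 0 to 2 with 1 library left out. The count of members called lower was 0, but 1 with DESeq2 (Lamtor2). DESeq2 called 6.86% and library size only 3.82% of all genes. The median log2 fold change of members ran from 0.12 to 0.24 with 1 library left out and was 0.30 with library size only, a scaling that moved the median of all genes by 0.17.

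With library size only, these log2 fold changes turned to above 0: Atp6v1b2 0.037, Atp6ap1 0.050, Atp6ap2 0.012, Flcn 0.16, Mtor 0.13, Atp6v0a2 0.11, Atp6v1g2 0.016 and Atp6v0e2 0.16. With DESeq2, Atp6v0e2 turned to 0.038. With 1 library left out, only the most abundant member and the one with the smallest p in each role were followed for the sign. It turned within these ranges: Atp6v0d2 -0.34 to 0.14, Atp6ap1 -0.15 to 0.040, Atp6ap2 -0.31 to 0.048, Flcn -0.11 to 0.13, Slc38a9 -0.023 to 0.18, Mtor -0.23 to 0.073 and Rptor -0.13 to 0.31. None of these 11 genes was called in any setting that tested it, and the cause was not tested.

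Tcirg1 passed with DESeq2 (adjusted p = 0.0159) and with library size only (0.0116), and Tpcn2 did not pass with library size only (0.110) or with the replicate block (0.123).

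Deviations of same-numbered libraries correlated at -0.21, -0.06 and -0.41 over genes, and those of differently numbered libraries at -0.19 to 0.40. These values showed no pairing by replicate number, but with 3 libraries per group they cannot exclude one. With the replicate block 0 members were called, as without it, and 4 of 35 members (11.4%) were at an unadjusted p under 0.05, against 13.6% of all genes.

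At 13 to 53 reads over all libraries, the log2 fold changes of Rragb, Atp6v1c2 and Rragd without the filter have standard errors of 0.63 to 1.09.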
